A study of Mus musculus with 2 samples.

Results

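The genes described here were 7 ligands of the fibroblast growth factor (FGF) family, *Fgf3*, *Fgf4*, *Fgf5*, *Fgf8*, *Fgf10*, *Fgf15* and *Fgf17*, and 3 of their receptors, *Fgfr1*, *Fgfr2* and *Fgfr3*. They were chosen by name, as 10 of the 32285 genes listed for single cells of gastrulating mouse embryos. No cut on their values was used, but earlier results of these data were known when they were chosen. Their unique molecular identifiers (UMIs, each standing for 1 captured RNA molecule) were added up within each cell population and expressed per 1000000 UMIs of the same cells (CPM). The assay reads the 3′ end of each molecule, so CPM were not divided by length and the splice forms of the receptors cannot be told apart. Reads in introns were counted too. The annotated spans, each over all transcripts of a gene, run from 4423 bases (*Fgf15*) to 2960900 bases (*Fgfr2*). Levels and shares set side by side between genes may therefore depend on length, which was not tested. Ratios between the libraries compare a gene with itself.

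FGF ligands are secreted proteins that bind receptor tyrosine kinases on nearby cells together with heparan sulfate, and the receptors signal mainly through the RAS, RAF and ERK cascade. At gastrulation *Fgf8* and *Fgf4* are made in and around the primitive streak, the strip of the epiblast where cells leave the epithelium to form mesoderm. *Fgfr1* is the receptor best known for letting these cells move away from the streak, while *Fgfr2* serves the extraembryonic ectoderm, which answers to FGF4 from the epiblast.

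Embryos were collected at embryonic day 7 and pooled by genotype, 4 control embryos in one pool and 3 *Yap1* cKO embryos in the other, and each pool gave 1 droplet library. The *Yap1* cKO embryos carried Sox2-Cre and *Yap1* fl/fl alleles. Sox2-Cre recombines in the epiblast and the tissues that descend from it, and *Yap1* encodes a coactivator of the TEAD transcription factors. The study gives the controls of this experiment as Sox2-Cre with *Yap1* fl/+, elsewhere in its methods as animals without Cre, and the labels call them WT, so the control may itself lack a copy of *Yap1* in the epiblast. The study also holds the extraembryonic tissues to be probably heterozygous for *Yap1*. Both pools are labelled female, yet UMIs of Y-linked genes were found in both: 51.6% of control cells (48.1 to 55.2) and 15.6% of *Yap1* cKO cells (13.2 to 18.2) were Y-bearing, that is, held Y-linked UMIs and none of *Xist*. The sexes of the pooled embryos therefore differed between the libraries, and this cannot be told apart from genotype in values over all cells. The ratio of *Yap1* cKO to control could be had within both Y-bearing and *Xist*-bearing cells for 50 pairs of gene and population, and in 25 of them the 2 values lay on opposite sides of 1, some by little. These were *Fgf15* in the epiblast, *Fgf8* and *Fgf17* in the streak, each of the 9 genes counted in nascent mesoderm except *Fgf15*, *Fgf8* and *Fgfr1* in lateral mesoderm, and *Fgf3*, *Fgf10*, *Fgf15*, *Fgfr1* and *Fgfr2* in blood and endothelial progenitors. The others were *Fgf5* and *Fgf10* in anterior visceral endoderm, *Fgf5*, *Fgf8*, *Fgf10* and *Fgfr1* in other visceral endoderm, and *Fgfr1* in extraembryonic ectoderm.

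With 1 library per genotype there was no replicate and no test, and none of the differences below can be set against the spread between embryos. All intervals are exact 95% intervals for counting error only. After filtering, 790 control and 860 *Yap1* cKO cells remained, with a median of 75697 and 80559 UMIs per cell. Populations were gated on UMIs of marker genes other than the 10, and their names stand for these gates. The epiblast gate held 273 cells in each library, the primitive streak gate 45 control and 67 *Yap1* cKO cells, and the nascent mesoderm gate 59 and 82. There were 69 and 57 cells of lateral and extraembryonic mesoderm, 30 and 29 blood and endothelial progenitors, and 26 and 14 node and axial cells. The gates on extraembryonic markers held 18 and 18 cells of anterior visceral endoderm (AVE), 75 and 202 of other visceral endoderm, and 180 and 101 of extraembryonic ectoderm (ExE). *Yap1* itself had 29.2 CPM in the control epiblast but 0.962 CPM in that of *Yap1* cKO embryos, giving a ratio of 0.0329 (0.0213 to 0.0486), and its ratio was between 0.0412 and 0.139 in the other embryonic gates. It was 0.332 (0.178 to 0.597) in AVE, 0.741 in ExE and 0.881 in visceral endoderm. The 10 visceral endoderm markers together stood at 5266 and 6904 CPM in AVE, against 18873 and 18260 CPM in other visceral endoderm. No gate was set for embryonic endoderm, so the AVE gate may hold cells that descend from the epiblast, which was not tested.

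**Figure D1:**
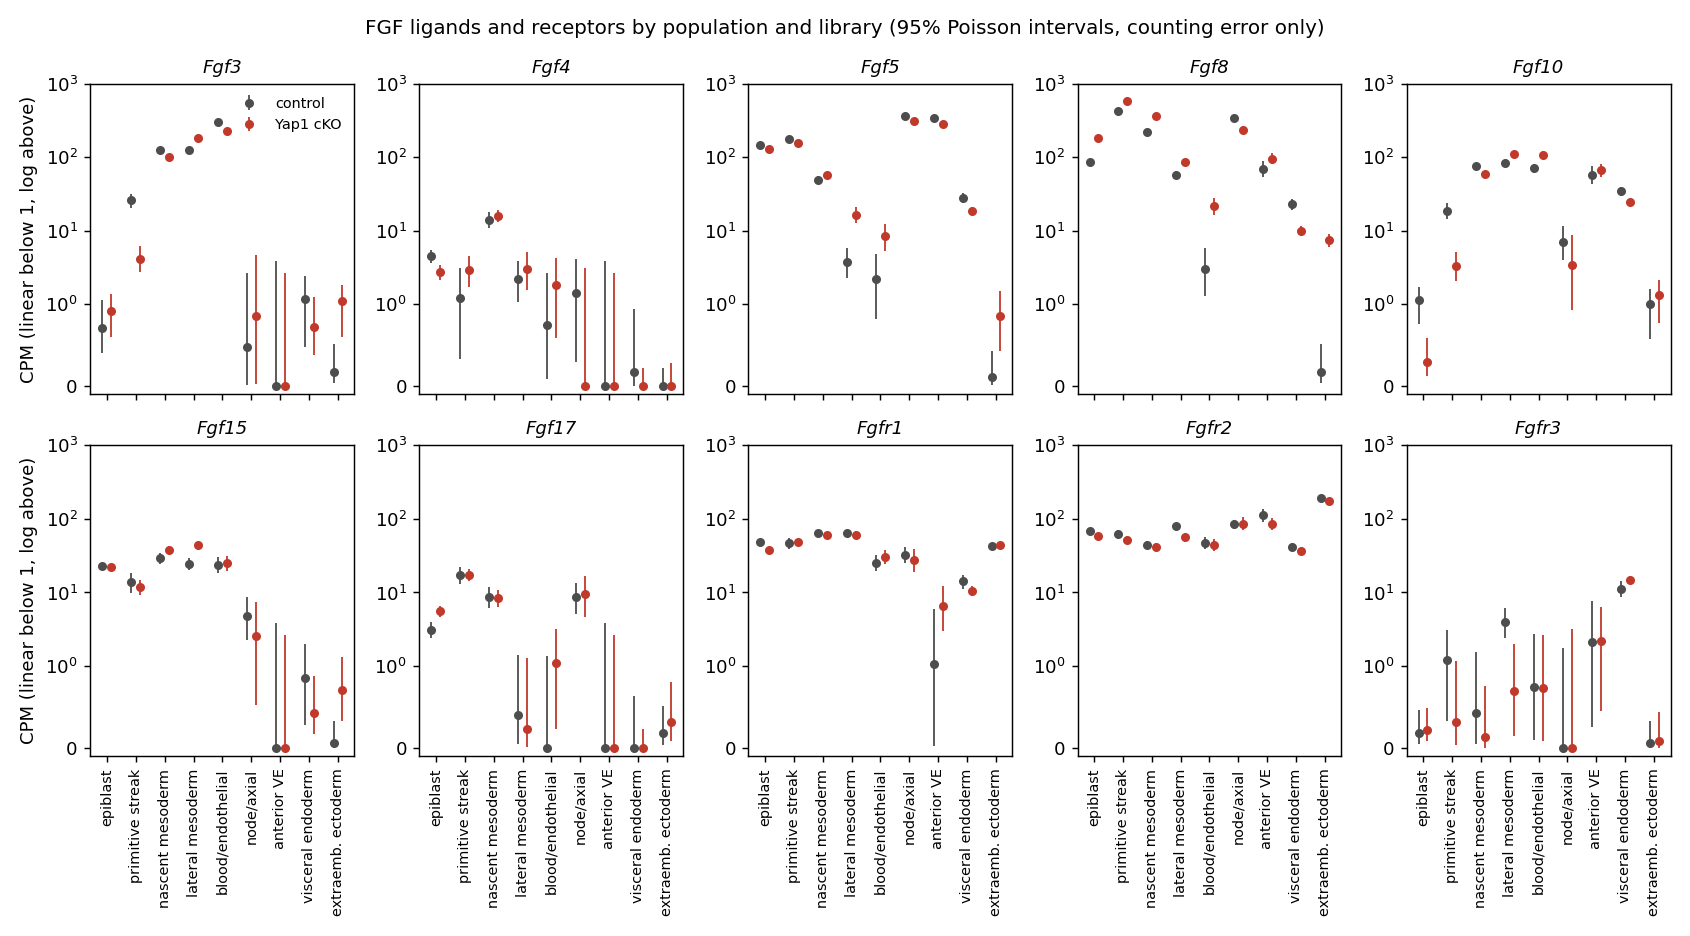
CPM of the 10 genes in 9 gated populations (horizontal axis), with control in grey and *Yap1* cKO in red; the vertical axis is linear below 1 CPM and logarithmic above, and bars are 95% Poisson intervals for counting error. *Fgf8* lay highest in the primitive streak, *Fgf5* in node and axial cells, *Fgf3* in blood and endothelial progenitors and *Fgfr2* in ExE in both libraries, and *Fgfr3* stood above 10 CPM only in visceral endoderm.

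*Fgf3*, *Fgf4* and *Fgf15* are neighbours on mouse chromosome 7, all on the plus strand. In the GENCODE M21 annotation of GRCm38, *Fgf3* (ENSMUSG00000031074) spans chr7:144838083-144844436, *Fgf4* (ENSMUSG00000050917) chr7:144847367-144865243 and *Fgf15* (ENSMUSG00000031073) chr7:144896531-144900953. In this annotation *Fgf3* and *Fgf4* are thus 2.93 kb apart and *Fgf15* starts 31.3 kb beyond *Fgf4*. The other ligands are scattered: *Fgf5* lies at chr5:98254184-98277030, *Fgf8* at chr19:45736798-45742915, *Fgf10* at chr13:118669791-118792115 and *Fgf17* at chr14:70636203-70642268. The receptors lie at chr8:25513654-25575718 (*Fgfr1*), chr7:130162451-133123350 (*Fgfr2*) and chr5:33721674-33737068 (*Fgfr3*). The RefSeq table used here held a promoter for 6 of the 10 genes. The 250 bases before the RefSeq start of the neighbours *Fgf3* (chr7:144838362-144838611) and *Fgf4* (chr7:144861136-144861385) are shown because the 2 genes differed in where they were expressed. The RefSeq starts differ from the GENCODE ones, so both stretches lie inside the gene spans given above, and the distance between the genes depends on the annotation. They are written 5′ to 3′ on the plus strand of GRCm38.p6, with a match to the TEAD motif CATTCC in capitals.
Fgf3: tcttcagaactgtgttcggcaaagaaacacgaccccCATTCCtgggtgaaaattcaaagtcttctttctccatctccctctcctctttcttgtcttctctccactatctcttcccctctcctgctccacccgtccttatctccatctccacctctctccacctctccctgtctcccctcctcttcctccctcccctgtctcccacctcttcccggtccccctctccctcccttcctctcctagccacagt
Fgf4: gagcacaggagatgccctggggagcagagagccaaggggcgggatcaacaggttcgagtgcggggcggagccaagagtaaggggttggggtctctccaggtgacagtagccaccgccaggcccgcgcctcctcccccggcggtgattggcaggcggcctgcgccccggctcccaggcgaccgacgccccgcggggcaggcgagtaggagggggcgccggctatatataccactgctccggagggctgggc
The match in *Fgf3* began 214 bases before the RefSeq start site and was the single match among the 7 promoters of these 6 genes. CATTCC or its reverse complement GGAATG occurred in 14.7% of all 32851 promoters of the table. None of the 7 promoters held the T-box motif AGGTGTGA (or TCACACCT), found in 1.28% of all promoters, or the TCF/LEF motif ATCAAAG (or CTTTGAT), found in 3.73%. A match of letters is not a binding site, and these data do not bear on binding.

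*Fgf8*, which is needed for cells to leave the streak, had more UMIs than any of the other 9 genes, and it was higher in *Yap1* cKO than in control epiblast. The control epiblast held 1903 *Fgf8* UMIs, or 85.2 CPM (81.4 to 89.1), and the *Yap1* cKO epiblast 4953, or 183 CPM (178 to 188). The ratio was 2.15 (2.04 to 2.27), and over all embryonic cells it was 1.78 (1.72 to 1.84). The same direction was found in Y-bearing cells (68.8 and 160 CPM, ratio 2.33) and in *Xist*-bearing cells (104 and 191 CPM, ratio 1.84). In epiblast cells without a UMI of the streak genes *T* and *Mixl1* the ratio was 2.24. The streak genes *Eomes*, *Evx1* and *Wnt3*, which the gates did not use, moved with it: their summed level was 66.5 CPM in the control epiblast against 101 CPM in the *Yap1* cKO epiblast, with 3 of 3 detected in both, and their part in the difference was not tested.

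The higher sum came with more *Fgf8*-bearing cells and with more UMIs in them. After each cell was thinned to 38000 UMIs, 55.8% of control epiblast cells (49.6 to 61.8) and 71.9% of *Yap1* cKO epiblast cells (66.0 to 77.2) held an *Fgf8* UMI. Without thinning these shares were 67.4% and 86.8%, at median depths of 74350 and 85937 UMIs. ExE cells, which served as the background, had an *Fgf8* UMI after thinning in 0 of 173 control cells. The exact upper limit of that share is 2.11%, and 3 cells of 173 would make 1.73%. Among *Yap1* cKO ExE cells the share was 3.13% (0.649 to 8.86). The median depths of ExE cells before thinning were 84252 and 106990 UMIs. Cells with more than 10 thinned *Fgf8* UMIs made up 10.8% of the control and 24.7% of the *Yap1* cKO epiblast. The median cell stood at 16.8 CPM in the control and at 81.0 CPM in the *Yap1* cKO library. No single cell carried the sum, since the cell with most *Fgf8* UMIs held 4.57% of them in the control epiblast and 2.16% in that of *Yap1* cKO embryos.

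**Figure D2:**
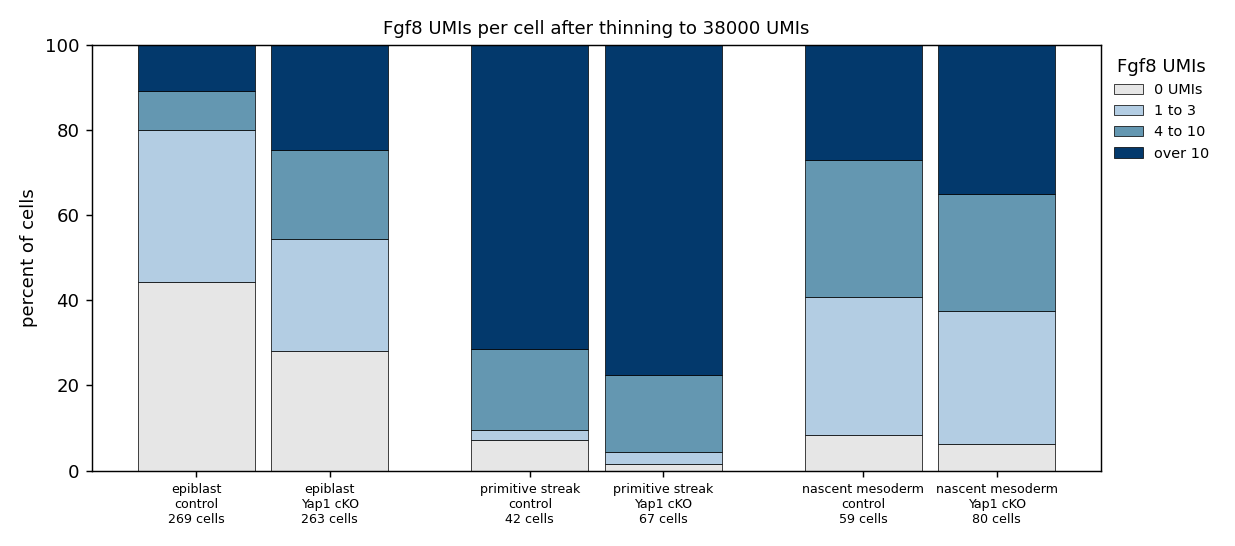
Share of cells (vertical axis, percent) with 0, 1 to 3, 4 to 10 or over 10 *Fgf8* UMIs after thinning to 38000 UMIs per cell, for epiblast, primitive streak and nascent mesoderm cells of each library (horizontal axis). In the epiblast the share without *Fgf8* was 44.2% in the control and 28.1% in *Yap1* cKO cells.

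Both libraries had their highest *Fgf8* level in the primitive streak, at 431 CPM (409 to 454) in the control and 588 CPM (570 to 608) in *Yap1* cKO cells. The ratio there was 1.36 (1.28 to 1.45), under the fold of 1.5 used to call a difference. In nascent mesoderm *Fgf8* stood at 219 CPM (205 to 232) and 363 CPM (350 to 377), giving a ratio of 1.66 (1.54 to 1.79). These 2 values were not alike in cells of both sexes. In the streak the ratio was 1.48 in *Xist*-bearing and 0.895 in Y-bearing cells, and in nascent mesoderm it was 2.42 and 0.799, with only 7 and 8 Y-bearing *Yap1* cKO cells. Within the control library alone, nascent mesoderm held 280 CPM in Y-bearing cells and 161 CPM in *Xist*-bearing ones, from 29 and 29 cells. That is a ratio of 1.74 (1.53 to 1.99) at 1 genotype, and its part in the difference between the libraries was not tested. The nascent ratio was 1.41 with cells weighted equally and 1.30 without cells over 150000 UMIs, both under the fold of 1.5. Markers outside the gate differed as well. The epiblast genes *Sox2*, *Utf1*, *Dnmt3b*, *Pim2* and *Otx2* together stood at 348 and 535 CPM (5 of 5 detected in both), and *Pou5f1* at 49.6 and 63.1 CPM. In the opposite direction, the nascent mesoderm genes *Lefty2*, *Msgn1*, *Tbx6* and *Snai1* together stood at 490 and 374 CPM (4 of 4 detected in both). The part of these markers was not tested.

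In the other populations the order of *Fgf8* levels was led by node and axial cells, which held 337 CPM (312 to 363) in the control and 235 CPM (208 to 264) in *Yap1* cKO cells, giving a ratio of 0.697 (0.604 to 0.802). That ratio was 1.25 with all gate cuts halved and 1.22 with all doubled, so its direction depended on the gate. AVE held 69.8 CPM (54.0 to 88.8) and 95.8 CPM (80.2 to 114), and lateral mesoderm 57.8 CPM (51.3 to 64.8) and 85.0 CPM (76.6 to 94.2). The lateral ratio was 1.64 in Y-bearing cells and 0.976 in *Xist*-bearing ones. In the control the counting intervals of epiblast, AVE and AVE's next neighbour, lateral mesoderm, overlapped in turn, and in *Yap1* cKO cells those of AVE and lateral mesoderm did. The remaining 3 populations held little. Blood and endothelial progenitors stood at 2.99 and 21.5 CPM, but 1 cell held 71.2% of the 59 *Yap1* cKO UMIs, and without the top cell of each library the ratio went from 7.18 to 2.82. In ExE, 1 cell held 89.5% of the 95 *Yap1* cKO UMIs, against 3 UMIs in the control. UMIs of *Mesp1* and *Mesp2* in ExE moved with it, at 0.412 and 4.23 CPM, while those of *T* and *Mixl1* did not, at 20.2 and 16.7 CPM. The part of these genes was not tested.

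Visceral endoderm was the population in which *Fgf8* was lower in *Yap1* cKO cells by over the fold of 1.5. It held 22.8 CPM (19.1 to 27.0) in the control and 9.91 CPM (8.45 to 11.6) in *Yap1* cKO cells, giving a ratio of 0.434 (0.344 to 0.550). Only 11 of 75 control and 21 of 202 *Yap1* cKO cells had an *Fgf8* UMI. UMIs of some embryonic genes moved with it. *Mesp1* and *Mesp2* together stood at 24.2 and 4.2 CPM, *T* and *Mixl1* at 15.7 and 5.90 CPM, and *Pou5f1* at 3.58 and 0.486 CPM. Others did not: the 4 lateral mesoderm markers together stood at 5.96 and 17.1 CPM, and the 7 blood markers at 56.2 and 60.7 CPM. The part of these genes was not tested. In Y-bearing visceral endoderm, with 23 control and 13 *Yap1* cKO cells, the ratio was 2.10, and in *Xist*-bearing cells it was 0.283.

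*Fgf17*, a close relative of *Fgf8*, had its highest level in the streak as well, and there the libraries were nearly level, at 17.0 CPM (12.8 to 22.1) and 17.4 CPM (14.2 to 20.9). In the epiblast it stood at 3.09 CPM (2.40 to 3.91) in control and 5.55 CPM (4.70 to 6.51) in *Yap1* cKO cells, giving a ratio of 1.80 (1.34 to 2.42). The ratio was 1.51 (0.881 to 2.60) in Y-bearing epiblast cells, from 30 and 30 UMIs, with an interval that included 1. In *Xist*-bearing ones it was 1.90 (1.29 to 2.87). Nascent mesoderm held 8.58 and 8.33 CPM and node and axial cells 8.58 and 9.39 CPM, with intervals that overlapped between the libraries. *Fgf17* was not found in any visceral endoderm or AVE cell, and 3 UMIs would correspond to 0.511 and 0.182 CPM in visceral endoderm.

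In the epiblast *Fgf17* UMIs were more frequent in cells that also held *Fgf8*, with intervals that lay apart in the *Yap1* cKO library and overlapped in the control. Among thinned control epiblast cells, 12.7% of cells with *Fgf8* (7.80 to 19.1) and 4.2% of cells without it (1.38 to 9.53) held *Fgf17*. Among *Yap1* cKO cells these shares were 22.8% (17.0 to 29.4) and 4.05% (0.844 to 11.4). *Fgf4* showed the opposite order, with 12.0% (7.27 to 18.3) of control cells with *Fgf8* and 20.2% (13.4 to 28.5) of those without, and 6.88% (3.71 to 11.5) and 16.2% (8.67 to 26.6) of *Yap1* cKO cells. The *Fgf17* intervals overlapped in the control and the *Fgf4* intervals in each library. Overlap alone cannot decide whether an order goes beyond counting error, and no interval was taken for the differences. *Fgf5* was present in 93.2% to 97.5% of the cells of these 4 classes and did not separate them.

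*Fgf4*, which keeps the trophoblast stem cells of the ExE dividing, was the only ligand with at least 50 UMIs that was lower in *Yap1* cKO than in control epiblast by the fold used. It stood at 4.52 CPM (3.68 to 5.50) in the control and 2.74 CPM (2.15 to 3.44) in *Yap1* cKO epiblast, giving a ratio of 0.605 (0.442 to 0.825), from 101 and 74 UMIs. The ratio was 0.721 (0.401 to 1.255) in Y-bearing cells, from 42 and 20 UMIs, with an interval that included 1. In *Xist*-bearing cells it was 0.517 (0.347 to 0.769). With all gate cuts doubled it was 0.698. The Y-bearing ratio and the one with doubled cuts were both short of the fold of 1.5. Its level was highest in nascent mesoderm, not in the epiblast: 14.2 CPM (10.9 to 18.0) and 15.8 CPM (13.1 to 19.0), giving a ratio of 1.12. Nascent mesoderm held 58.0% of the CPM summed over the 9 populations in the control and 60.3% in *Yap1* cKO cells. No *Fgf4* UMI was found in ExE or AVE of either library, and in ExE 3 UMIs would correspond to 0.176 and 0.235 CPM.

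*Fgf5*, a marker of the epiblast once it has become an epithelium, was the leading ligand of the control epiblast and was second to *Fgf8* in the *Yap1* cKO epiblast. It held 147 CPM (142 to 152) in control and 129 CPM (125 to 134) in *Yap1* cKO epiblast, giving a ratio of 0.877 (0.836 to 0.920). Of the UMIs of the 7 ligands in the epiblast, *Fgf5* took 55.6% in the control and 37.5% in *Yap1* cKO cells, and *Fgf8* took 32.2% and 53.2%. The number of *Fgf5*-bearing epiblast cells was the same, 269 of 273, in both libraries before thinning.

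**Figure D3:**
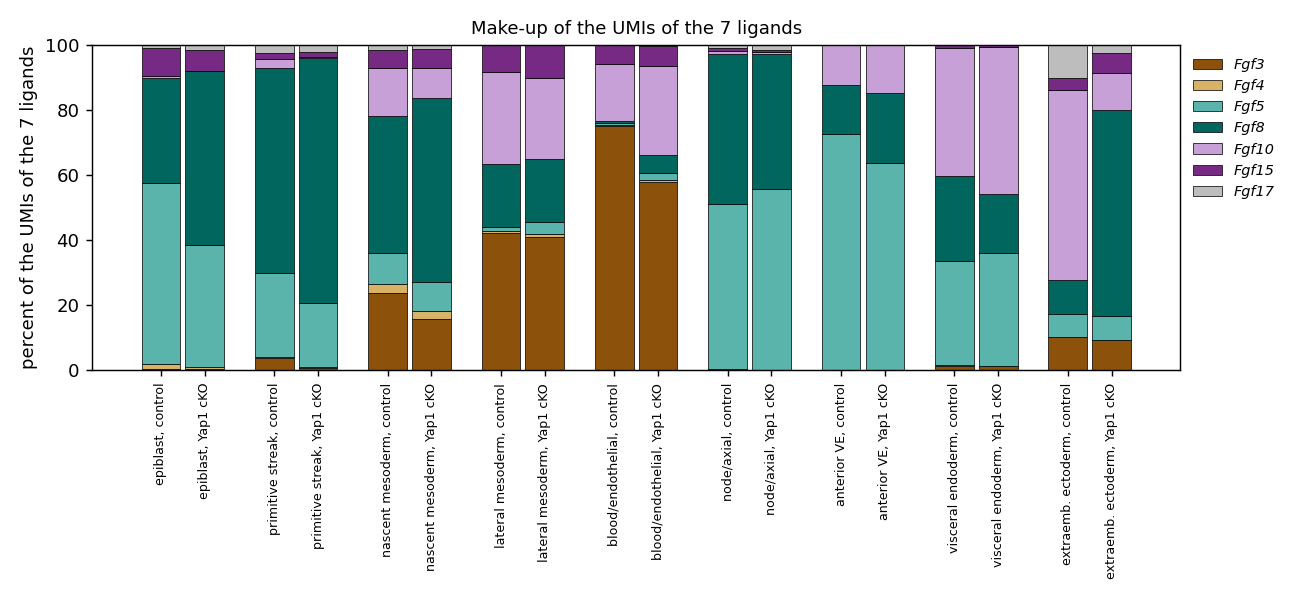
Make-up of the UMIs of the 7 ligands (vertical axis, percent) in each population and library (horizontal axis). *Fgf8* held 32.2% of the ligand UMIs of the control epiblast and 53.2% of those of the *Yap1* cKO epiblast, *Fgf3* led in blood and endothelial progenitors at 75.1% and 58.0%, and the ExE bars rest on only 29 and 150 UMIs.

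The epiblast was not where *Fgf5* was highest. Node and axial cells held 369 CPM (343 to 396) in the control and 312 CPM (280 to 345) in *Yap1* cKO cells, and AVE 340 CPM (304 to 380) and 284 CPM (256 to 313), with overlapping intervals between these neighbours in both libraries. The AVE cells held no *Pou5f1* UMI in either library, and each of the 18 AVE cells of each library held *Fgf5*. The streak followed with 177 CPM (163 to 192) and 156 CPM (146 to 166). In the 4 highest populations the ratio over all cells was from 0.834 to 0.877, under the fold. In AVE the direction of the ratio was not the same in cells of both sexes: Y-bearing cells held 339 and 452 CPM (ratio 1.33) and *Xist*-bearing cells 332 and 228 CPM (0.686), from 5 and 6 and from 12 and 7 cells.

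Where *Fgf5* was low, the libraries differed more. Lateral mesoderm held 3.77 CPM (2.27 to 5.89) in the control and 16.6 CPM (12.9 to 20.8) in *Yap1* cKO cells, giving a ratio of 4.38 (2.62 to 7.70) from 19 and 72 UMIs. One *Yap1* cKO cell held 27.8% of these UMIs, 9 control and 18 *Yap1* cKO cells had any, and the ratio with cells weighted equally was 2.96. In Y-bearing cells, with 10 and 4 UMIs, the ratio was 1.28 (0.293 to 4.44), under the fold, and in *Xist*-bearing cells, with 8 and 68 UMIs, it was 4.07 (1.95 to 9.81). Of the epiblast genes in lateral mesoderm, *Pou5f1* stood at 27.4 and 19.8 CPM, while *Sox2*, *Utf1*, *Dnmt3b*, *Pim2* and *Otx2* together stood at 131 and 192 CPM with 5 of 5 detected in both, and their part was not tested. Visceral endoderm held 28.3 CPM (24.1 to 32.9) and 18.6 CPM (16.6 to 20.8), giving a ratio of 0.658 (0.543 to 0.80), which was 8.43 in Y-bearing cells, where 20 and 86 UMIs were counted, and 0.389 in *Xist*-bearing cells.

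*Fgf3*, known for its role in the inner ear and tail, was a ligand of mesoderm and of the blood and endothelial progenitors. The latter held 303 CPM (282 to 324) in the control and 229 CPM (212 to 248) in *Yap1* cKO cells, giving a ratio of 0.757 (0.681 to 0.841). Lateral mesoderm held 126 CPM (116 to 136) and 180 CPM (168 to 193), giving a ratio of 1.43 (1.29 to 1.59), and nascent mesoderm 124 CPM (114 to 134) and 102 CPM (94.4 to 109), giving a ratio of 0.821 (0.735 to 0.917). Lateral and nascent mesoderm were level within counting error in the control. In the progenitors the ratio was 0.325 in Y-bearing cells and 1.31 in *Xist*-bearing ones, so its direction was not the same in cells of both sexes. The epiblast was nearly empty of *Fgf3*, at 0.717 and 0.925 CPM.

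The streak showed the lowest ratio of *Fgf3*, and it rested on a few control cells. The control streak held 25.8 CPM (20.6 to 31.9) and the *Yap1* cKO streak 4.18 CPM (2.73 to 6.12), giving a ratio of 0.162 (0.100 to 0.254). A single control cell held 51.8% of the 85 control UMIs, and only 8 of 45 control cells against 15 of 67 *Yap1* cKO cells held any. *Fgf10* was lower in the same gate too, with 18.8 CPM (14.4 to 24.1) and 3.37 CPM (2.09 to 5.16), giving a ratio of 0.179 (0.104 to 0.298). It was found in 13 of 45 control and 8 of 67 *Yap1* cKO cells, and the top control cell held 35.5% of the 62 control UMIs. When streak cells with a UMI of the mesodermal receptor gene *Kdr* were left out, which kept 37 of 45 control and 66 of 67 *Yap1* cKO cells, the ratios were 2.71 for *Fgf3*, from 4 and 26 UMIs, and 1.09 for *Fgf10*, from 8 and 21 UMIs. With all gate cuts doubled they were 0.984 and 0.981.

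*Fgf10*, best known from limb and lung buds, was spread over mesoderm and visceral endoderm and was nearly absent from the epiblast. Lateral mesoderm held 84.2 CPM (76.4 to 92.6) in the control and 110 CPM (100 to 120) in *Yap1* cKO cells, giving a ratio of 1.31 (1.14 to 1.49). That ratio was 1.60 in Y-bearing cells, past the fold, and 1.42 in *Xist*-bearing ones. Nascent mesoderm held 76.2 CPM (68.5 to 84.5) and 59.3 CPM (53.8 to 65.1), giving a ratio of 0.778 (0.675 to 0.898). The nascent ratio was 1.11 in Y-bearing cells and 0.864 (0.714 to 1.05) in *Xist*-bearing ones. Blood and endothelial progenitors held 71.0 CPM (61.3 to 81.9) and 108 CPM (96.5 to 122), and their ratio of 1.53 (1.27 to 1.84) was 2.60 in Y-bearing cells and 0.899 in *Xist*-bearing ones. The control levels of lateral mesoderm, nascent mesoderm and progenitors were level with their neighbours within counting error. Markers of other gates moved with it in the progenitors: the 4 lateral mesoderm markers together stood at 134 and 208 CPM (4 of 4 detected in both) and *Mesp1* and *Mesp2* at 80.4 and 182 CPM, and their part was not tested. AVE held 58.1 CPM (43.8 to 75.7) and 67.0 CPM (54.1 to 82.1), with a ratio of 2.58 in Y-bearing cells and 0.852 in *Xist*-bearing ones. Visceral endoderm held 34.7 CPM (30.1 to 39.9) and 24.3 CPM (21.9 to 26.8), with a ratio of 1.47 in Y-bearing cells and 0.597 in *Xist*-bearing ones. The epiblast held 26 UMIs in the control and 8 in *Yap1* cKO cells, or 1.16 and 0.296 CPM.

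*Fgf15*, the mouse counterpart of human FGF19, was a low, widely shared ligand of embryonic cells. The epiblast held 22.7 CPM (20.8 to 24.8) in the control and 22.5 CPM (20.7 to 24.4) in *Yap1* cKO cells, giving a ratio of 0.990 (0.879 to 1.12), although it was 1.37 in Y-bearing cells and 0.844 in *Xist*-bearing ones. Lateral mesoderm held 24.6 CPM (20.5 to 29.4) and 44.1 CPM (38.1 to 50.8), giving a ratio of 1.79 (1.42 to 2.26). That ratio was 2.05 in *Xist*-bearing cells. In Y-bearing cells, with 83 and 37 UMIs, it was 1.43 (0.942 to 2.13), under the fold and with an interval that included 1. Markers outside the gate moved with it: *Lefty2*, *Msgn1*, *Tbx6* and *Snai1* together stood at 80.0 and 122 CPM, and *Eomes*, *Evx1* and *Wnt3* at 197 and 272 CPM. Their part was not tested. Nascent mesoderm held 29.2 CPM (24.5 to 34.5) and 38.1 CPM (33.8 to 42.9), giving a ratio of 1.31 (1.06 to 1.61). In the control the intervals of nascent mesoderm, lateral mesoderm, blood progenitors (23.6 CPM) and epiblast overlapped. No UMI was found in AVE.

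Against the fold of 1.5, the count of these genes can be read beside that of all genes whose UMIs in the 2 libraries came to 50 or more. In the epiblast 7 of the 10 genes reached 50 UMIs (*Fgf3*, *Fgf10* and *Fgfr3* did not). *Fgf8* and *Fgf17* were higher by the fold, against 2.02% of 13038 genes, and *Fgf4* was lower, against 3.45%. In the streak 8 genes reached 50 UMIs, 0 of them were higher (3.1% of 9555 genes) and 2, *Fgf3* and *Fgf10*, were lower (4.51%). In nascent mesoderm 1 of 9 genes was higher, *Fgf8* (3.26% of 9886 genes), and 0 were lower (2.73%). The median ratio of the genes counted was 0.877 in the epiblast, 0.867 in the streak and 0.971 in nascent mesoderm, beside 0.967, 0.978 and 0.992 over all genes.

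In lateral mesoderm 2 of 7 genes were higher, *Fgf5* and *Fgf15* (3.86% of 9546 genes), and 0 were lower (4.24%). In blood and endothelial progenitors 2 of 6 were higher, *Fgf8* and *Fgf10* (6.01% of 8136 genes), and 0 were lower (4.5%). Neither node and axial cells nor AVE had a gene past the fold among the 4 counted in each, where 2.82% and 5.07% of genes were higher and 7.1% and 4.6% lower. In visceral endoderm 0 of 6 were higher (3.07%) and 2, *Fgf5* and *Fgf8*, were lower (4.09% of 10759 genes). In ExE 1 of 3 was higher, *Fgf8* (2.43% of 11108 genes), and 0 were lower (2.6%). *Fgf8* was past the fold in 5 of 9 populations, and only *Fgf8* and *Fgfr2* were counted in all 9. The share of all genes past the fold in as many populations was not counted. The progenitor and ExE calls rest mainly on 1 *Yap1* cKO cell each. The nascent mesoderm and visceral endoderm ratios turned to 0.799 and 2.10 in Y-bearing cells.

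**Figure D4:**
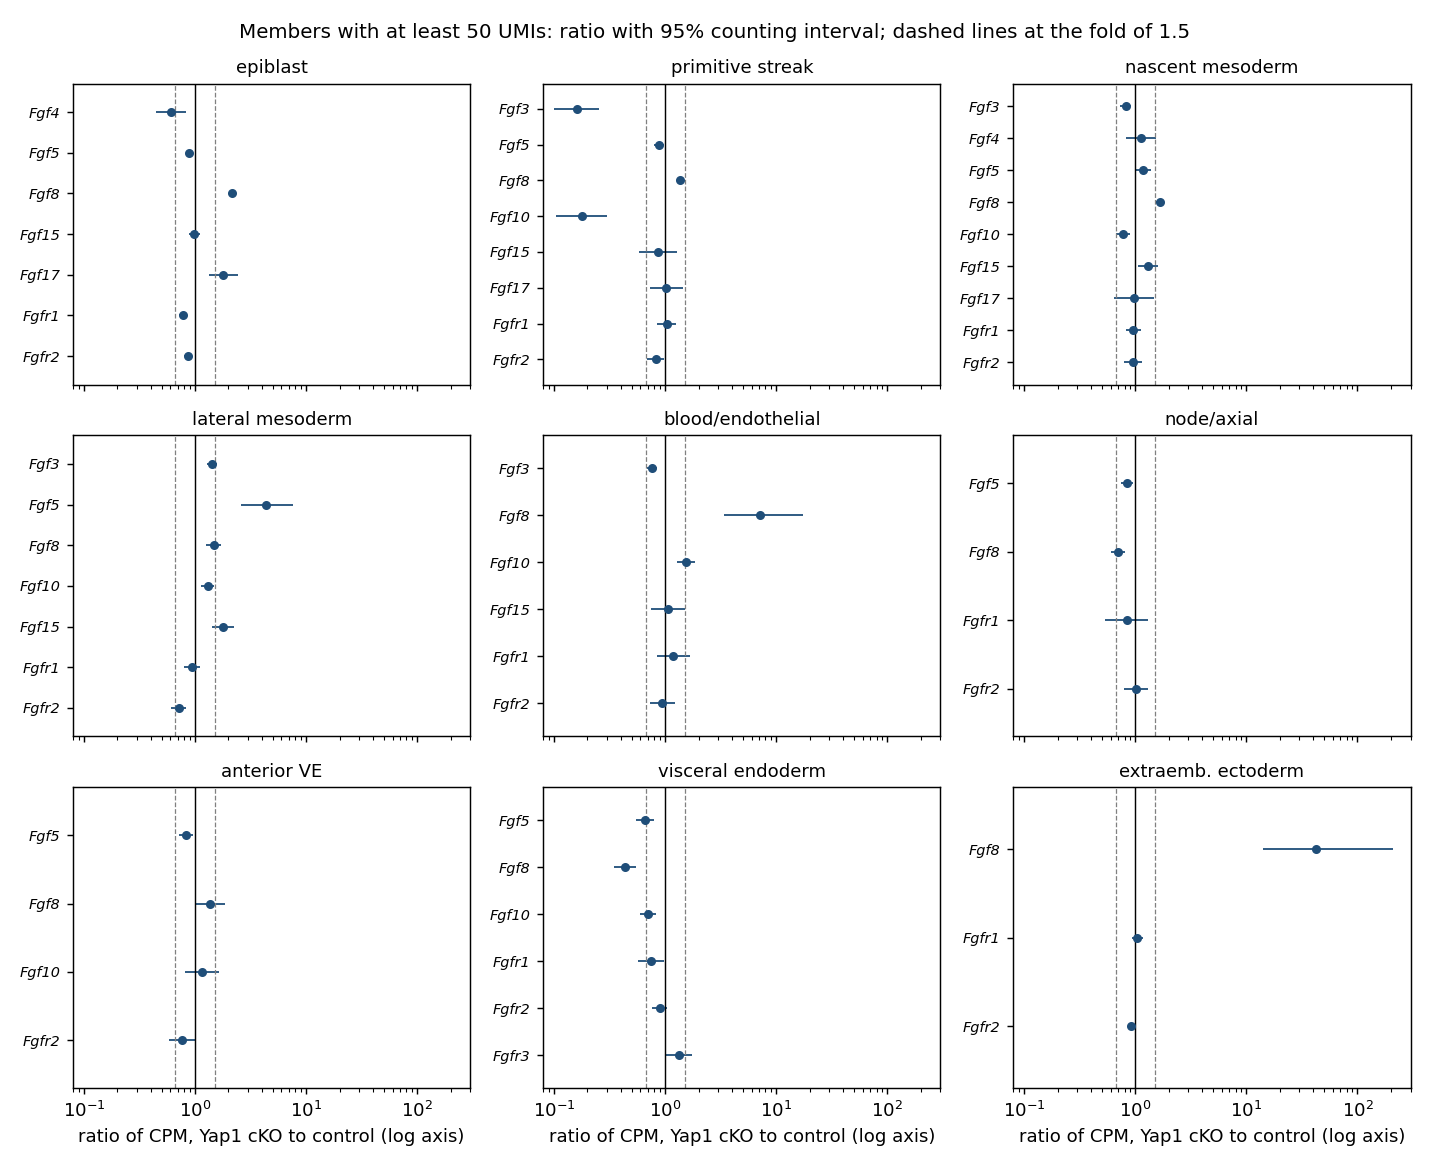
Ratio of CPM in *Yap1* cKO to control cells (horizontal axis, logarithmic) for the genes that reached 50 UMIs, libraries added, in each of 9 populations, with 95% intervals for counting error and dashed lines at the fold of 1.5 in each direction. *Fgf8* lay at 2.15 in the epiblast and 0.434 in visceral endoderm, the streak ratios of *Fgf3* and *Fgf10* rest on few cells, and the *Fgf8* ratios of 7.18 and 42.2 in blood and endothelial progenitors and in ExE rest on 1 *Yap1* cKO cell each.

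No receptor that reached 50 UMIs passed the fold in any population, where from 2.02% to 6.01% of all genes were higher and from 2.6% to 7.1% lower. *Fgfr1* held 48.9 CPM (46.0 to 51.9) in control and 38.2 CPM (35.9 to 40.6) in *Yap1* cKO epiblast, giving a ratio of 0.781 (0.717 to 0.851). In the streak it was level, at 46.5 CPM (39.4 to 54.5) and 47.9 CPM (42.6 to 53.6). Nascent mesoderm at 63.5 and 61.0 CPM and lateral mesoderm at 63.5 and 59.8 CPM were the highest and could not be told apart by counting error. ExE held 42.3 CPM (39.2 to 45.5) and 44.0 CPM (40.4 to 47.8). AVE held 1 *Fgfr1* UMI in the control and 9 in *Yap1* cKO cells, which made it the population with the lowest level. The share of thinned cells with an *Fgfr1* UMI was 79.9% and 78.0% in the epiblast and 93.2% and 90% in nascent mesoderm, beside 5.88% (0.149 to 28.7) and 22.2% (6.41 to 47.6) in AVE.

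*Fgfr2* was the main receptor of the ExE, where it held 190 CPM (183 to 196) in the control and 173 CPM (166 to 181) in *Yap1* cKO cells, giving a ratio of 0.914 (0.865 to 0.965). It took 80.3% and 77.9% of the UMIs of the 4 FGF receptor genes there. Every population had it, the lowest in the control being visceral endoderm at 41.7 CPM (36.7 to 47.3) and nascent mesoderm at 44.2 CPM (38.4 to 50.7), whose intervals overlapped. The epiblast held 68.3 CPM (64.9 to 71.8) and 59.0 CPM (56.1 to 62.0), giving a ratio of 0.864 (0.805 to 0.927). The lowest ratio was that of lateral mesoderm, 0.711 (0.604 to 0.836), from 78.8 CPM (71.3 to 87.0) and 56.1 CPM (49.3 to 63.6), and it was 0.517 in Y-bearing cells and 0.963 in *Xist*-bearing ones. No population lacked *Fgfr2*, so its shares of cells had no background to be set beside.

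In the epiblast and the other embryonic gates *Fgfr1* and *Fgfr2* made up nearly all receptor UMIs, and the balance between them differed between populations. The annotated spans over all transcripts, 62065 bases for *Fgfr1* and 2960900 bases for *Fgfr2*, may bear on the shares, which was not tested. The RefSeq promoter of *Fgfr2* lies at chr7:130266759-130267058, inside that span and far from its upstream end, so the span depends on the annotation. *Fgfr1* took 41.6% of the receptor UMIs of the control epiblast and 39.0% of those of the *Yap1* cKO epiblast, 42.3% and 48.1% in the streak, and 58.7% and 59.1% in nascent mesoderm. In node and axial cells it took 27.8% and 24.1%. Many cells held both: after thinning, 93.5% of control and 86.8% of *Yap1* cKO epiblast cells with *Fgfr1* also held *Fgfr2*. Of the epiblast cells without *Fgfr1*, 87.0% (75.1 to 94.6) and 91.4% (81.0 to 97.1) held it, so *Fgfr2* was about as frequent with *Fgfr1* as without.

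*Fgfr3*, which restrains the growth of bone later in life, was found mainly in visceral endoderm. That population held 11.2 CPM (8.69 to 14.3) in the control and 14.8 CPM (13 to 16.8) in *Yap1* cKO cells, giving a ratio of 1.32 (1.0 to 1.76), and 56.3% and 77.4% of the CPM summed over populations. *Fgfr3* and *Fgf4* were the 2 of the 10 genes with over 50% in the same population in both libraries, as were 5.79% of 15839 genes. An *Fgfr3* UMI was found in 30.4% (19.9 to 42.7) of thinned control and 41.6% (34.2 to 49.2) of thinned *Yap1* cKO cells of visceral endoderm, beside 0.744% (0.0902 to 2.66) and 0.760% (0.0922 to 2.72) in the epiblast. Lateral mesoderm held 20 UMIs in the control and 3 in *Yap1* cKO cells, or 3.97 and 0.689 CPM (ratio 0.174, 0.0330 to 0.585), fewer than the 50 UMIs needed for a call. Over all embryonic cells *Fgfr3* likewise stayed under 50 UMIs, with 33 and 14 (ratio 0.349, 0.173 to 0.670). Even in visceral endoderm *Fgfr2* took the largest single share of receptor UMIs, 48.5% and 44.5%. *Fgfr4*, the remaining receptor gene, took 22.0% and 25.2%, and *Fgfr3* 13.1% and 17.8%.

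**Figure D5:**
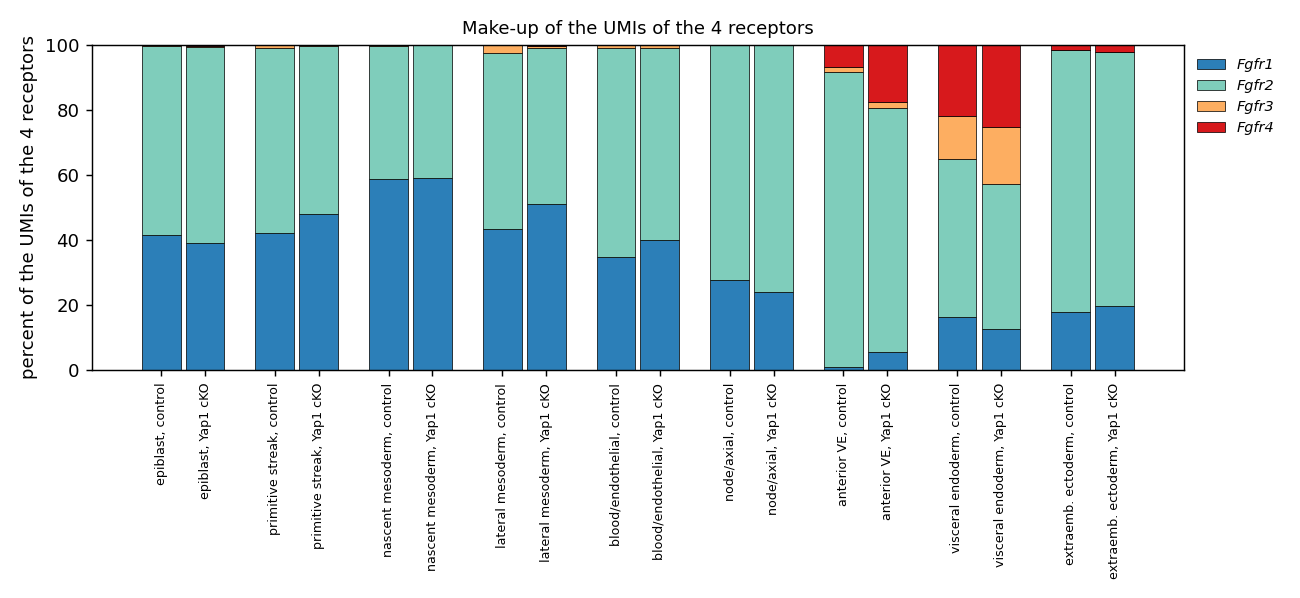
Make-up of the UMIs of the 4 FGF receptor genes (vertical axis, percent) in each population and library (horizontal axis). *Fgfr2* held 80.3% and 77.9% in ExE and *Fgfr1* held 58.7% and 59.1% in nascent mesoderm. *Fgfr3* was visible mainly in visceral endoderm, and *Fgfr4* in visceral endoderm and AVE.

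Other genes of the FGF pathway were read as lists chosen by function. Their ratios were not split into Y-bearing and *Xist*-bearing cells. In the epiblast 0 of 51 genes counted over 6 lists were higher by the fold (2.02% of all genes) and 4 were lower (3.45% of all genes). The 19 heparan sulfate genes counted build, carry or modify the sugar chains that FGF needs to bind. Among them *Hs6st1*, a sulfotransferase, held 16.8 and 10.4 CPM (ratio 0.621, 0.530 to 0.727), and *Gpc4*, a glypican, held 29.6 and 19.1 CPM (0.646, 0.575 to 0.726). *Flrt3*, a membrane protein that binds FGF receptors and was 1 of 4 receptors and co-receptors counted, held 5.29 and 3.0 CPM (0.567, 0.422 to 0.758). Of the 13 response and feedback genes counted, 1 passed the fold, the immediate early gene *Egr1*, which held 9.09 and 4.66 CPM (0.513, 0.407 to 0.643). None of the 10 adaptors, the 1 ligand carrier and the 4 other FGF genes counted passed it. Of these 4, *Fgf9* encodes a secreted ligand, while the products of *Fgf12*, *Fgf13* and *Fgf14* stay in the cell and do not act through FGF receptors. The list medians of the ratio ranged from 0.805 to 0.957 in the epiblast, beside 0.967 over all genes.

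In the streak 4 of 43 genes counted over the 6 lists were lower by the fold (4.51% of all genes) and 1 was higher (3.1%). *Flrt3* and *Gpc4* were lower there as well, at 18.5 and 9.64 CPM (ratio 0.520) and at 37.7 and 22.5 CPM (0.597). *Hs6st1* also passed the fold, at 8.20 and 5.46 CPM (0.666, 0.390 to 1.15), but its interval included 1. *Dusp4*, a phosphatase that acts on ERK, held 9.42 and 4.66 CPM there (0.495, 0.288 to 0.848), as 1 of 12 response genes counted. Of the genes counted, only *Fgf14* was higher, at 3.34 and 7.71 CPM (2.31, 1.18 to 4.93). In nascent mesoderm 0 of 13 response genes were higher (3.26% of all genes) and 1 was lower (2.73%). In lateral mesoderm 4 of 12 were higher (3.86% of all genes) and 0 lower (4.24%), and in blood and endothelial progenitors 3 of 10 were higher (6.01%) and 0 lower (4.5%).

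For each of the 10 genes, the 3 genes with the most similar levels were sought over 7 populations of both libraries, as the Pearson correlation of log2(CPM + 1) over 14 points. Node and axial cells and AVE were left out for their small cell numbers, so the populations with the highest *Fgf5* levels did not enter. This is a description: the points share 2 libraries and the best of many genes is always close. *Sp8*, a zinc-finger transcription factor gene, lay closest to *Fgf8* (r = 0.971), and *Aplnr*, the apelin receptor of early mesoderm, closest to *Fgf3* (0.979). *Igfbp2* lay closest to *Fgf5* (0.967), *Kcnq3* to *Fgf15* (0.984), *Dlgap2* to *Fgf17* (0.979), *Tmem229a* to *Fgf4* (0.975) and 1010001N08Rik to *Fgf10* (0.959). Among the receptors, *Simc1* lay closest to *Fgfr1* (0.958), *Ak4* to *Fgfr2* (0.960) and *Gjb2*, a gap junction gene, to *Fgfr3* (0.972). Among the 10 genes themselves, *Fgf5* and *Fgf8* (0.866), *Fgf8* and *Fgf17* (0.847) and *Fgf3* and *Fgf10* (0.844) ran most alike over these 7 populations. The neighbours *Fgf3* and *Fgf4* had 0.477 and *Fgfr1* and *Fgfr3* ran opposite (-0.740). In AVE, outside the 7, *Fgf5* and *Fgf8* stood at 340 and 69.8 CPM in the control.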

How the data were processed

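Cells of embryonic day 7 mouse embryos were profiled with droplet 3′ RNA-seq, 1 library per genotype. The deposited values are UMI counts per gene and barcode, which the authors made with Cell Ranger 7.1.0 (per the submitters' processing notes) with default settings on the mm10 genome, without normalization; at these settings intronic reads count too. The libraries held 70573418 UMIs in 1829 barcodes (control) and 87937858 in 1897 (*Yap1* cKO), which shared 2 barcodes, none of them in cells kept.

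Barcodes with at least 5000 genes were kept (791 and 864), none exceeded 10% mitochondrial UMIs, and scrublet in scanpy 1.11.5 (Python 3.11.15) removed 1 and 4 doublets. The authors' ambient RNA step was not repeated, so free RNA remains in the counts. Cells were gated in a fixed order on summed CPM of marker genes, at cuts from 20 to 1000 CPM set from the distributions of the marker sums: visceral endoderm (*Ttr*, *Apoa1* and 8 others, with *Cer1*, *Hhex*, *Lefty1* and *Dkk1* for AVE), ExE (*Elf5*, *Rhox6* and 5 others), blood (*Tal1*, *Etv2* and 5 others), axial (*Noto*, *Foxj1* and 4 others), lateral (*Foxf1*, *Hand1*, *Tbx20*, *Pitx1*), nascent mesoderm (*Mesp1*, *Mesp2*), streak (*T*, *Mixl1*) and epiblast (*Pou5f1*). Left out of the gates were 6 embryonic cells with over 200 CPM of visceral endoderm genes and 7 with both visceral endoderm and ExE markers, and 19 cells met no gate but were counted as embryonic.

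CPM have exact Poisson, ratios exact conditional binomial and shares Clopper-Pearson intervals, with SciPy 1.17.1. A difference was called at a fold of 1.5 for genes whose UMIs in the 2 libraries came to 50 or more. Shares were taken after thinning to 38000 UMIs, a depth that 26 control and 48 *Yap1* cKO cells did not reach. Y-bearing cells had 2 or more UMIs of the Y-linked genes *Uty*, *Kdm5d*, *Eif2s3y* and *Ddx3y* and none of *Xist*, and *Xist*-bearing cells the converse. edgeR 4.0.16 served only for TMM factors. The steps were tested on simulated counts. Gene positions are from GENCODE M21 and promoters from RefSeq (GRCm38.p6). All 10 genes were named, with the 3 genes most like each and the pathway genes past the fold in epiblast or streak. The genes, lists and gates were chosen with earlier results of these data known.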

Additional observations from a re-analysis of the deposited data

Results flagged for a closer look

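Some ratios of *Yap1* cKO to control lay past the fold of 1.5 in opposite directions in different populations, with counting intervals that did not include 1. With 1 library per genotype the difference between populations was not tested. *Fgf8* was higher in *Yap1* cKO cells in the epiblast (ratio 2.15), in nascent mesoderm (1.66), in blood and endothelial progenitors (7.18) and in ExE (42.2), and lower in visceral endoderm (0.434). The progenitor and ExE values rest mainly on 1 *Yap1* cKO cell each, and the epiblast value was above 1.8 in both Y-bearing and *Xist*-bearing cells. The visceral endoderm value moved together with UMIs of *Mesp1*, *T* and *Pou5f1*, but not with those of the lateral mesoderm markers.

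*Fgf5* was higher in lateral mesoderm (4.38) and lower in visceral endoderm (0.658). The lateral ratio was 1.28 in Y-bearing cells, from 10 and 4 UMIs, and 4.07 in *Xist*-bearing cells, and the visceral endoderm ratio was 8.43 in Y-bearing cells and 0.389 in *Xist*-bearing ones. *Fgf10* was higher in blood and endothelial progenitors (1.53) and lower in the streak (0.179), the progenitor ratio was 0.899 in *Xist*-bearing cells, and the streak ratio was 1.09 without cells that held *Kdr*.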

How the results depend on the processing

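No paired analysis was possible because each genotype has 1 library. In Y-bearing cells alone the ratio of *Fgf8* turned from 1.66 to 0.799 in nascent mesoderm, from 1.36 to 0.895 in the streak and from 0.434 to 2.10 in visceral endoderm, *Fgf5* in visceral endoderm went to 8.43, and *Fgf8* in the epiblast was 2.33. There the nascent ratios were 0.141 (*Fgf17*), 0.629 (*Fgf5*), 0.765 (*Fgfr2*), 1.11 (*Fgf10*), 1.12 (*Fgfr1*) and 1.42 (*Fgf3*), those in the streak 0.0350 (*Fgf10*) and 0.646 (*Fgf5*), and those in the epiblast 0.779 (*Fgf5*) and 1.37 (*Fgf15*). The nascent *Fgf17* value rests on 24 control and 1 *Yap1* cKO UMIs (0.0034 to 0.867). The streak *Fgf10* value rests on 35 and 1 UMIs (0.00086 to 0.2085). In *Xist*-bearing cells *Fgf8* had 1.84 in the epiblast, 1.48 in the streak and 2.42 in nascent mesoderm, *Fgf3* 0.688 in nascent mesoderm, *Fgf5* 0.928 and *Fgf15* 0.844 in the epiblast, and *Fgf10* 0.899 in progenitors.

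Halving all gate cuts gave 2.30 for *Fgf8* in the epiblast and 0.286 (*Fgf3*) and 0.680 (*Fgf5*) in the streak, and doubling them 0.984 (*Fgf3*), 0.981 (*Fgf10*) and 0.716 (*Fgf5*) in the streak and 0.908 for *Fgf10* in nascent mesoderm. Weighting cells equally gave 1.41 for *Fgf8* in nascent mesoderm. Of the alternatives chosen after seeing the data, leaving out cells over 150000 UMIs gave 1.30 there and 2.45 in the epiblast, leaving out streak cells with *Kdr* gave 2.71 (*Fgf3*) and 1.09 (*Fgf10*), and leaving out the top *Fgf3* cell of each library gave 0.267 in the streak. The other settings (gene minimums of 2000 and 6000, doublets kept, cells with visceral endoderm UMIs kept, TMM factors, scaling by the median gene) moved none of these ratios beyond its counting interval.

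Where a setting left under 20 UMIs of a gene, its ratio was not recomputed under that setting, other than within Y-bearing and *Xist*-bearing cells.

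The share of all genes past the fold moved with the UMI minimum and the fold. At 20 UMIs, 3.93% of genes were higher and 6.06% lower in the epiblast, 6.0% and 7.28% in the streak, and 6.38% and 5.09% in nascent mesoderm. At 200 UMIs these shares were 0.671% and 1.44%, 0.832% and 1.25%, and 0.869% and 0.869%, and at a fold of 2 they were 0.545% and 0.690%, 0.774% and 1.26%, and 0.880% and 0.607%. The 26 and 14 axial cells, the 18 and 18 AVE cells and the Y-bearing *Yap1* cKO cells limit what could be resolved there.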

Other observations

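The genes named here were chosen after their values were seen, and none of the differences was tested or split into Y-bearing and *Xist*-bearing cells. In lateral mesoderm the response genes *Dusp6*, a phosphatase of ERK, and *Etv1* and *Etv5*, ETS transcription factors, had more UMIs in *Yap1* cKO cells. *Dusp6* held 7.94 CPM in the control and 14.9 CPM in *Yap1* cKO cells (ratio 1.88, 1.25 to 2.86), *Etv1* 15.3 and 29.4 CPM (1.92, 1.44 to 2.59) and *Etv5* 14.7 and 25.3 CPM (1.72, 1.27 to 2.34). The same 3 genes were past the fold in blood and endothelial progenitors, with ratios of 2.83 (1.72 to 4.83), 2.11 (1.28 to 3.58) and 1.92 (1.23 to 3.03). In the epiblast none of them was. Markers of other gates moved with these genes. In the progenitors *Mesp1* and *Mesp2* together stood at 80.4 and 182 CPM, the 4 lateral mesoderm markers at 134 and 208 CPM and the streak genes *Eomes*, *Evx1* and *Wnt3* at 71.0 and 159 CPM. In lateral mesoderm the same 3 streak genes stood at 197 and 272 CPM and *Lefty2*, *Msgn1*, *Tbx6* and *Snai1* together at 80.0 and 122 CPM. Their part was not tested. No cell held more than 13.9% of the UMIs of any of the 3 in lateral mesoderm, or more than 22.7% in the progenitors. *Dusp4*, which also passed the fold in lateral mesoderm, had an interval that included 1.

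Some other pathway genes past the fold in the AVE, visceral endoderm and ExE gates rested on few cells. The carrier gene *Fgfbp1*, whose product frees FGF from the matrix, held 35.9 and 95.1 CPM in AVE (ratio 2.65, 1.80 to 3.98), but 1 of the 9 *Yap1* cKO cells with a UMI held 50.8% of them. In other visceral endoderm it held 11.9 and 7.84 CPM (0.658, 0.488 to 0.893), from 3 control and 6 *Yap1* cKO cells. In ExE the glypican genes *Gpc3* (2.41 and 16.6 CPM, ratio 6.89, 4.92 to 9.88) and *Gpc6* (3.71 and 9.88 CPM, ratio 2.67, 1.96 to 3.67) were higher, while none of the other 15 heparan sulfate genes counted there passed the fold. A single *Yap1* cKO cell held 40.1% of the *Gpc3* UMIs, and *Gpc6* was found in 8 control and 10 *Yap1* cKO cells. UMIs of some embryonic genes moved with them in ExE, *Mesp1* and *Mesp2* together from 0.412 to 4.23 CPM and *Pou5f1* from 0.118 to 2.27 CPM. Others went the other way. *T* and *Mixl1* together went from 20.2 to 16.7 CPM, *Lefty2*, *Msgn1*, *Tbx6* and *Snai1* from 19.1 to 16.0 CPM, and *Eomes*, *Evx1* and *Wnt3* from 181 to 171 CPM. The part of these genes was not tested.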
